A study of Mus musculus with 11 samples.

Results

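The 7 genes described here encode secreted or surface glycoproteins of the inner ear: *Tecta*, *Tectb*, *Ceacam16*, *Otog*, *Otogl*, *Otoa* and *Strc*. They were chosen by gene symbol as large glycoproteins that cochlear epithelial cells pass through the endoplasmic reticulum (ER), and all 7 were found among the 18667 genes of the *Atf6*+/+ and *Atf6*-/- expression tables. The rule itself uses no measured level, though it was written with earlier results of these data known.

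The tectorial membrane is an extracellular gel that lies over the organ of Corti and touches the stereocilia of the outer hair cells. Its collagen fibrils run through a matrix of α-tectorin, β-tectorin and CEACAM16, otogelin and otogelin-like join it, otoancorin holds it to the spiral limbus, and stereocilin holds it to the outer hair cells. Most of these proteins carry a signal peptide, N-glycans and many disulphide bonds, and several are anchored by glycosylphosphatidylinositol (GPI), so their folding and processing take place in the ER, where ATF6 acts as a sensor of unfolded protein and, once cleaved, as a transcription factor for chaperone genes. Loss of any of the 7 is a known cause of deafness in people or in mice.

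RNA-Seq was performed on whole cochleae of 2-month-old mice, with 5 *Atf6*+/+ and 6 *Atf6*-/- libraries, each from a single cochlea. The *Atf6*-/- genotype is a germline null allele, truncated early in the coding sequence (exon 4), so that ATF6 is missing from all tissues and not from the cochlea alone. Both genotypes were on the C57BL/6J background, so that the controls too carry the *Cdh23* ahl allele of that strain, which leads to hearing loss at later ages. The comparison asks whether the transcripts of these glycoproteins differ in amount when ATF6 is absent. The age is one before the hearing loss of the strain sets in. The study reports that knockout mice of this age already had raised hearing thresholds, fewer outer hair cells at the cochlear base and disorganized stereocilia. Whether this damage affected the levels of *Strc* or of outer hair cell genes was not tested.

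Levels are FPKM, fragments counted relative to transcript length and library size, so levels of different genes can be set side by side. Fold changes are *Atf6*-/- over *Atf6*+/+ on the log2(FPKM + 0.1) scale. Depth is not known beyond the 30 M reads per sample that the methods state, and a value with 2 decimals near 0 is coarse. *Atf6* itself (NCBI gene 226641) was lower in the knockout, at 4.27 ± 0.28 FPKM (SD, n = 6) against 9.52 ± 1.11 FPKM (SD, n = 5), and did not overlap between the genotypes. Cochlear marker genes were present in all 11 libraries: *Coch*, of the spiral ligament, was between 2024 and 3731 FPKM, *Otof*, of the inner hair cell synapse, between 7.40 and 31.5 FPKM, and *Gjb2*, the gap junction gene of supporting cells and fibrocytes, between 138 and 289 FPKM. The libraries also held other tissues in unequal amounts. *Atf6*-/- replicate 3 had a skeletal muscle score, the mean log2 level of a list of muscle genes, 3.36 above the mean of its genotype. *Atf6*+/+ replicates 3 and 4 had low levels of inner ear epithelial genes and high B cell levels, replicate 4 was also low in stria vascularis genes, *Atf6*-/- replicate 5 nearly lacked the vestibular gene *Otol1* (0.08 FPKM, against 2.19 to 9.0 FPKM in the other 10 libraries), and *Atf6*-/- replicate 4 had the highest level of the vestibular gene *Nox3* (6.72 FPKM). In bulk cochlear RNA, fewer cells of a type and less RNA per cell cannot be told apart.

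ATF6 is known to act at ER stress response elements (ERSE), which begin with CCAAT and end, after any 9 bases, with the letters CCACG on the same strand. The promoter of *Hspa5*, the gene for the ER chaperone BiP and a classic ATF6 target, is shown first for that arrangement (65 to 47 bases before its start, capitals at either end), followed by the 250 bases before the start of *Tectb*, *Otog* and *Otoa*, with capitals where the other strand reads CCACG in *Tectb* and where it reads CCAAT in *Otog* and *Otoa*. All 4 are RefSeq sequences of GRCm38.p6, written 5′ to 3′ along the gene.
ERSE of *Hspa5*: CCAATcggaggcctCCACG
*Tectb*, chr19:55180476-55180725, plus strand: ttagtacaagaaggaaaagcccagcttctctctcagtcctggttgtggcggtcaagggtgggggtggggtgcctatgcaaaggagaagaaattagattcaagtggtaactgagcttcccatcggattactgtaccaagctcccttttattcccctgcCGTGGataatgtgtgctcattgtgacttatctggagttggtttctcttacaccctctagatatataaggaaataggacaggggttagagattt
*Otog*, chr7:46240737-46240986, plus strand: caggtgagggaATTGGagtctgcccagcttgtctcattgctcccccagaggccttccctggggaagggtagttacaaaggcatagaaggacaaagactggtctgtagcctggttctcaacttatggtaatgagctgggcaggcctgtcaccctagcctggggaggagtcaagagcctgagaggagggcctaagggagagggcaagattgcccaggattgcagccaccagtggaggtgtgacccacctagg
*Otoa*, chr7:121083174-121083423, plus strand: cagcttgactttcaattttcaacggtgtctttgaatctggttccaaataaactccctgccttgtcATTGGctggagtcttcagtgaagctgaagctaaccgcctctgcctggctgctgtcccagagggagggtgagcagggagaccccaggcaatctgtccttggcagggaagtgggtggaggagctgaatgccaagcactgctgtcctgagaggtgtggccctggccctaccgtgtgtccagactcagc
Windows of 300 bases, from 250 before to 50 after the start, were found for 5 of the 7 members (6 windows, as *Tecta* has 2 starts), with no entry for *Ceacam16* and *Otogl*. None of the 6 held the ERSE on either strand, which 0.119% of 32851 mouse promoters held. ERSE-II (ATTGG, then 1 base of any kind, then the letters CCACG, in 0.0365% of promoters; it shares its last letters with the ERSE) and the ATF6 site TGACGTGG (in 0.676%) were not in these windows either. CCACG alone was in 1 window, that of *Tectb*, 93 to 89 bases before the start, and in 32.8% of all promoters. CCAAT alone was in 3 windows, those of *Otoa*, *Otog* and *Strc*, and in 37.4% of all promoters. A missing match says only that these letters are not in these windows, and nothing about binding by ATF6.

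The 7 genes spanned a wide range of levels. *Ceacam16* averaged 430 FPKM over the 11 libraries and stood at place 128 of the 16169 genes tested, those that averaged 0.1 FPKM or more. *Otoa* and *Otog* followed at 39.2 and 24.0 FPKM. *Tectb* (5.03 FPKM), *Tecta* (4.04 FPKM), *Otogl* (3.16 FPKM) and *Strc* (2.68 FPKM) formed a low group whose levels overlapped from library to library. Each of these 4 was below *Otog* in every library, and *Otog* was below *Otoa* in every library, but neighbours within the low group were not separated beyond their spread. *Ceacam16* alone made up 71.5 to 86.2% of the summed FPKM of the 7 genes in *Atf6*+/+ and 77.7 to 93.8% in *Atf6*-/- cochleae. Without it, the sum was 38.6 to 118 FPKM in *Atf6*+/+ and 60.8 to 110 FPKM in *Atf6*-/- cochleae, so the range of the knockout lay within that of the wild type.

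**Figure D1:**
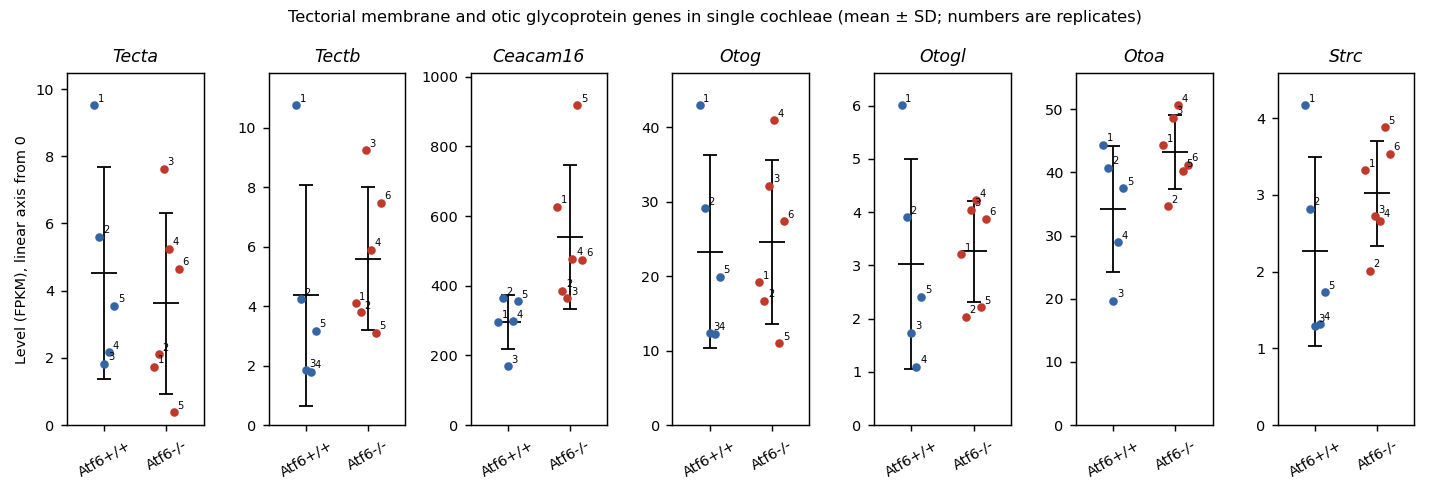
Level of each gene in FPKM (vertical axes, linear and from 0, a separate scale for each gene) in 5 *Atf6*+/+ (blue) and 6 *Atf6*-/- (red) cochleae. Points are single libraries with their replicate numbers, and bars are the mean ± SD; the genotypes are apart only for *Ceacam16*, where the highest *Atf6*+/+ value is 363.34 and the lowest *Atf6*-/- value is 363.95 FPKM.

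*Ceacam16* was the member with the clearest difference between the genotypes. It encodes a secreted member of the carcinoembryonic antigen family that joins α- and β-tectorin in the striated-sheet matrix of the tectorial membrane (NCBI gene 330483, chromosome 7). Its level in the *Atf6*+/+ replicates 1 to 5 was 296.01, 363.34, 168.07, 297.48 and 355.31 FPKM. In the *Atf6*-/- replicates 1 to 6 it was 626.34, 385.52, 363.95, 477.03, 918.32 and 474.26 FPKM. Every *Atf6*-/- value was above every *Atf6*+/+ value, but replicate 3 of the knockout exceeded replicate 2 of the wild type by under 1 FPKM, and the libraries at the far ends were *Atf6*+/+ replicate 3 and *Atf6*-/- replicate 5. The means were 296 ± 78.1 FPKM (SD, n = 5) and 541 ± 207 FPKM (SD, n = 6), and the fitted fold change was 1.79 (95% confidence interval 1.23 to 2.62), or 0.84 on the log2 scale (standard error 0.25). The unadjusted limma p was 0.00538 and the two-sided p of an exact permutation test was 0.00866. After Benjamini-Hochberg adjustment over 16169 genes, the limma adjusted p was 0.374, so the difference did not pass the test across all genes.

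Non-overlap of the 2 genotypes held for 1.25% of all genes tested, and for 0.643% with the *Atf6*-/- libraries on top. It was lost for *Ceacam16* when the libraries were rescaled to a common sum (TPM) or by the median of ratios to a mean library, while the log2 fold change was then 0.90 and 0.86. When any 1 library was left out, the *Ceacam16* difference was between 0.65 and 0.94 on the log2 scale, with an unadjusted limma p under 0.05 in all 11 fits. With a bone marrow score in the model it was 0.44, and the unadjusted p was then above 0.05.

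Neither of the α- and β-tectorin genes passed a test of difference between the genotypes. *Tecta* encodes α-tectorin, the large GPI-anchored zonadhesin-like protein that organizes the matrix (NCBI gene 21683, chromosome 9). It was at 9.52, 5.61, 1.83, 2.16 and 3.55 FPKM in the *Atf6*+/+ replicates 1 to 5 and at 1.73, 2.10, 7.62, 5.25, 0.38 and 4.65 FPKM in the *Atf6*-/- replicates 1 to 6. The genotypes overlapped, with *Atf6*-/- replicates 1 and 5 below every *Atf6*+/+ library and replicate 5 far below the others. *Tecta* had the only negative fold change among the 7 genes, -0.53 on the log2 scale, with a 95% confidence interval of -1.95 to 0.90 (limma adjusted p = 0.801) that reached from a fold of 0.259 to a fold of 1.86. Without *Atf6*-/- replicate 5 it was -0.029, without *Atf6*+/+ replicate 1 it was -0.20, and without *Atf6*+/+ replicates 3 and 4 together it was -1.12, so its size rested on single libraries. The highest library was 25.1-fold above the lowest. The spread of *Tecta* between libraries of 1 genotype, an SD of 1.26 on the log2 scale, was 9.22 times that of the median gene and above 99.3% of the 13611 genes that averaged 1 FPKM or more.

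*Tectb* encodes β-tectorin, a smaller GPI-anchored zona pellucida domain protein needed for the striated sheet (NCBI gene 21684, chromosome 19). It was at 10.75, 4.23, 1.84, 1.79 and 3.16 FPKM in the *Atf6*+/+ libraries and between 3.10 and 9.24 FPKM (median 4.99 FPKM) in the *Atf6*-/- libraries. The highest value of all belonged to *Atf6*+/+ replicate 1, and the 2 lowest to *Atf6*+/+ replicates 3 and 4. The log2 fold change was 0.58 (95% confidence interval -0.36 to 1.51, limma adjusted p = 0.647). Without *Atf6*+/+ replicate 1 it was 0.98 (limma adjusted p = 0.364, with an unadjusted p under 0.05), and without *Atf6*+/+ replicates 3 and 4 together it was -0.015.

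The tectorin pair moved together from library to library, but not in a fixed ratio. The ratio of *Tecta* to *Tectb* FPKM was 0.886, 1.33, 0.995, 1.21 and 1.12 in the *Atf6*+/+ replicates 1 to 5 and 0.423, 0.554, 0.825, 0.893, 0.123 and 0.623 in the *Atf6*-/- replicates 1 to 6. The genotypes overlapped in this ratio by 1 library each, *Atf6*+/+ replicate 1 and *Atf6*-/- replicate 4. This ratio was 1 of 7 that were looked at, and it was singled out after its values were seen, so no test of it is given.

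The 2 otogelin genes had similar means in the genotypes, with wide intervals. *Otog* encodes otogelin, a mucin-like glycoprotein found in all the acellular membranes of the inner ear (NCBI gene 18419, chromosome 7). It was at 42.95, 29.13, 12.32, 12.24 and 19.87 FPKM in *Atf6*+/+ cochleae and between 10.96 and 40.91 FPKM (median 23.3 FPKM) in *Atf6*-/- cochleae. Both genotypes covered nearly the same range. The log2 fold change was 0.12 (95% confidence interval -0.71 to 0.95, limma adjusted p = 0.938), and its sign was negative without *Atf6*+/+ replicate 3 (-0.068), *Atf6*+/+ replicate 4 (-0.071) or *Atf6*-/- replicate 4 (-0.056).

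*Otogl* encodes the related otogelin-like protein (NCBI gene 628870, chromosome 10). Its values were 6.01, 3.90, 1.73, 1.09 and 2.41 FPKM in *Atf6*+/+ cochleae and between 2.03 and 4.22 FPKM (median 3.54 FPKM) in *Atf6*-/- cochleae. All 6 *Atf6*-/- values lay within the *Atf6*+/+ range. The log2 fold change was 0.28 (95% confidence interval -0.52 to 1.09, limma adjusted p = 0.811), and without *Atf6*+/+ replicate 4 it was -0.0068.

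The pair of genes for attachment proteins had higher means in the *Atf6*-/- cochleae, with neither passing a test. *Otoa* encodes otoancorin, the GPI-anchored protein that fastens the tectorial membrane to the interdental cells of the limbus (NCBI gene 246190, chromosome 7). Its values in the *Atf6*+/+ replicates were 44.35, 40.71, 19.64, 28.95 and 37.46 FPKM, and those of the *Atf6*-/- libraries were between 34.64 and 50.64 FPKM (median 42.7 FPKM). All 6 *Atf6*-/- values were above the *Atf6*+/+ mean of 34.2 ± 9.94 FPKM (SD, n = 5), 2 of them were above every *Atf6*+/+ value, and the lowest 2 of the 11 libraries were *Atf6*+/+ replicates 3 and 4. The log2 fold change was 0.38 (95% confidence interval -0.02 to 0.78, unadjusted limma p = 0.0580, adjusted p = 0.505), and the exact two-sided permutation p was 0.0931. *Otoa* had the least spread of the 7 genes, an SD of 0.35 on the log2 scale within a genotype. Its unadjusted limma p was under 0.05 without *Atf6*+/+ replicate 1 (log2 fold change 0.49), *Atf6*+/+ replicate 2 (0.46) or *Atf6*-/- replicate 2 (0.45). Without *Atf6*+/+ replicate 3 alone, however, the log2 fold change was 0.20, and without *Atf6*+/+ replicates 3 and 4 together it was 0.08 (limma adjusted p = 0.932).

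*Strc* encodes stereocilin, the protein of the horizontal top connectors between stereocilia and of their attachment to the tectorial membrane (NCBI gene 140476, chromosome 2). Its values were 4.17, 2.82, 1.29, 1.32 and 1.73 FPKM in *Atf6*+/+ cochleae and between 2.01 and 3.88 FPKM (median 3.02 FPKM) in *Atf6*-/- cochleae. The *Atf6*-/- libraries lay within the *Atf6*+/+ range, with *Atf6*+/+ replicate 1 on top and *Atf6*+/+ replicates 3, 4 and 5 at the bottom. The log2 fold change was 0.51 (95% confidence interval -0.10 to 1.13, limma adjusted p = 0.557), and without *Atf6*+/+ replicate 1 it was 0.76 (limma adjusted p = 0.358, with an unadjusted p under 0.05). Without *Atf6*+/+ replicates 3 and 4 together it was 0.11 (limma adjusted p = 0.960).

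Over the 7 genes, 0 had a limma adjusted p under 0.05, as did 0.068% of all genes tested (11 of 16169). Under a looser rule, an unadjusted p up to 0.05 and a log2 fold change beyond 0.05 in either direction, called the unadjusted rule here, 1 of the 7 passed (*Ceacam16*, upward), against 9.85% of all genes, 4.48% upward and 5.37% downward. A count of 1 in 7 is near that background. The fold change was positive for 6 of the 7 genes and for 45.3% of all genes tested, with a median of 0.38 over the members and -0.013 over all genes on the log2 scale. The member median was 0.20 to 0.58 with 1 library left out, and -0.015 without *Atf6*+/+ replicates 3 and 4 together. The members share libraries and several of them varied together, so these 7 signs are not independent of each other.

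**Figure D2:**
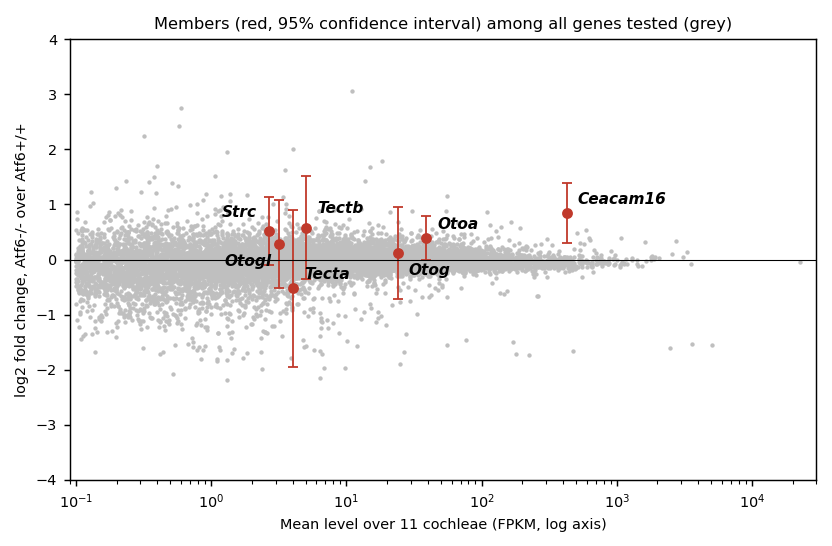
Log2 fold change of *Atf6*-/- over *Atf6*+/+ (vertical axis) against the mean level in FPKM (horizontal log axis) for the 16169 genes tested (grey) and the 7 members (red, with 95% confidence intervals). *Ceacam16*, at 430 FPKM and 0.84, is the only member whose interval lies clear of 0, and that of *Tecta*, from -1.95 to 0.90, is the widest.

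Of 29 genes that act on or beside these glycoproteins, 2 (6.9%) passed the unadjusted rule, a share near the 9.85% of all genes. Of 6 collagen genes of the tectorial membrane, 0 passed the unadjusted rule in either direction, and the most abundant, *Col11a2*, was at 75.1 ± 12.1 FPKM (SD, n = 5) and 83.1 ± 18.2 FPKM (SD, n = 6). Of the 5 subunit genes of the GPI transamidase, the ER enzyme that attaches the GPI anchor to proteins such as α-tectorin, 1 was higher and 0 lower by the unadjusted rule. That gene was *Pigs*, with means of 33.6 ± 0.880 FPKM (SD, n = 5) for wild type against 37.6 ± 1.45 FPKM (SD, n = 6) for knockout, no overlap, and a difference of 0.16 on the log2 scale (standard error 0.039, limma adjusted p = 0.294). *Pigt*, the most abundant of the 5, differed by 0.09 on the log2 scale (limma adjusted p = 0.569). Of 5 protease genes linked to tectorin processing or to the same epithelium, *Tmprss3*, a deafness gene for a transmembrane serine protease, was higher by the unadjusted rule (log2 fold change 0.62, limma adjusted p = 0.407) and 0 were lower. *Furin*, which cleaves secreted precursors in the Golgi, differed by 0.18 on the log2 scale (limma adjusted p = 0.573). Of 7 partners of stereocilin and the hair bundle links, among them *Cdh23*, *Pcdh15* and the most abundant, *Ptprq* (6.62 ± 2.89 FPKM (SD, n = 5) and 5.48 ± 1.74 FPKM (SD, n = 6)), 0 passed in either direction. The same held for 6 genes of the otoconial and cupular matrix, the vestibular counterparts of the tectorial membrane, which included *Otol1* (otolin), *Otop1* (otopetrin) and the widely expressed *Sparcl1*, the most abundant (log2 fold change 0.025).

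Some markers of other cell types passed the unadjusted rule, as 4.48% of all genes did upward and 5.37% downward, and none had a limma adjusted p under 0.05. Of 12 supporting cell genes, 5 were higher and 0 lower at the unadjusted rule (*Fgfr3*, *Jag1*, *Epyc*, *Emilin2* and *Fst*), and their summed level was 453 to 729 FPKM in *Atf6*+/+ and 583 to 930 FPKM in *Atf6*-/- cochleae. *Fgfr3*, the receptor that marks pillar and Deiters' cells, had a mean of 7.0 ± 1.41 FPKM (SD, n = 5) in wild-type and 10.4 ± 0.844 FPKM (SD, n = 6) in knockout cochleae, with no overlap (limma adjusted p = 0.133). Of 7 outer hair cell genes, 2 were higher and 0 lower, *Ocm* (oncomodulin, log2 fold change 1.16, limma adjusted p = 0.391) and *Slc26a5* (prestin, 1.197, limma adjusted p = 0.475), and the sums were 71.8 to 126 FPKM and 97.8 to 153 FPKM. In 8 further otic epithelial genes, 1 was higher (*Cldn9*) and 0 lower, with sums of 115 to 223 FPKM and 150 to 231 FPKM, and of 9 general hair cell genes 0 passed, with sums of 34.0 to 109 FPKM and 38.7 to 84.1 FPKM.

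Blood and marrow genes that passed were all lower in the *Atf6*-/- cochleae. Of 7 neutrophil genes 3 were lower (*S100a8*, *S100a9* and *Ltf*) and 0 higher, with summed levels of 248 to 3053 FPKM in *Atf6*+/+ and 89.4 to 1189 FPKM in *Atf6*-/- cochleae. Of 5 B cell genes 3 were lower (among them *Cd79a*, sums 8.96 to 32.9 FPKM and 7.15 to 13.1 FPKM), and of 7 erythroid genes 5 were lower (among them *Hba-a1* and *Alas2*, sums 3188 to 30283 FPKM and 1869 to 6108 FPKM). No gene of these lists was at 0 in any library. In the remaining lists, *Kcnj10* of 9 stria vascularis genes, *Coch* of 5 spiral ligament genes and *Acan* of 6 cartilage genes tested were higher, and 0 of 7 bone, 6 skeletal muscle, 6 neuronal, 4 vestibular and 6 motile cilium genes passed in either direction. The part of these cell types in the *Ceacam16* difference was examined only by the fits that follow.

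The fold changes of the members depended on which score was added to the model. With a bone marrow score, averaged from the 3 blood and marrow lists, 0 members passed the unadjusted rule. Over all genes 874 of 16169 then passed, against 1592 with genotype alone. With that score the log2 fold change of *Ceacam16* was 0.44 (95% confidence interval -0.17 to 1.04, limma adjusted p = 0.963). With an otic epithelium score from the supporting cell and epithelial lists it was 0.54 (0.04 to 1.05), with an outer hair cell score 0.64 (0.02 to 1.25), and with a vestibular score 0.80 (0.25 to 1.34). Without *Atf6*+/+ replicates 3 and 4, it was 0.61 (0.04 to 1.17). *Ceacam16* thus kept its sign in each of these fits, at a smaller size than the 0.84 with genotype alone, and nearest to it with the vestibular score. *Otog* and *Otogl* turned negative with the marrow (-0.13 and -0.14), otic epithelium (-0.32 and -0.26) and outer hair cell (-0.48 and -0.44) scores. *Otoa* and *Strc* were near 0 with the otic epithelium score, at 0.08 and 0.06, and *Tectb* at 0.02, while *Tecta* was at -0.96 (limma adjusted p = 0.919). The scores are measured in the same libraries, and where a list's genes are on average higher or lower in 1 genotype, what part of a difference belongs to either cannot be told apart.

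**Figure D3:**
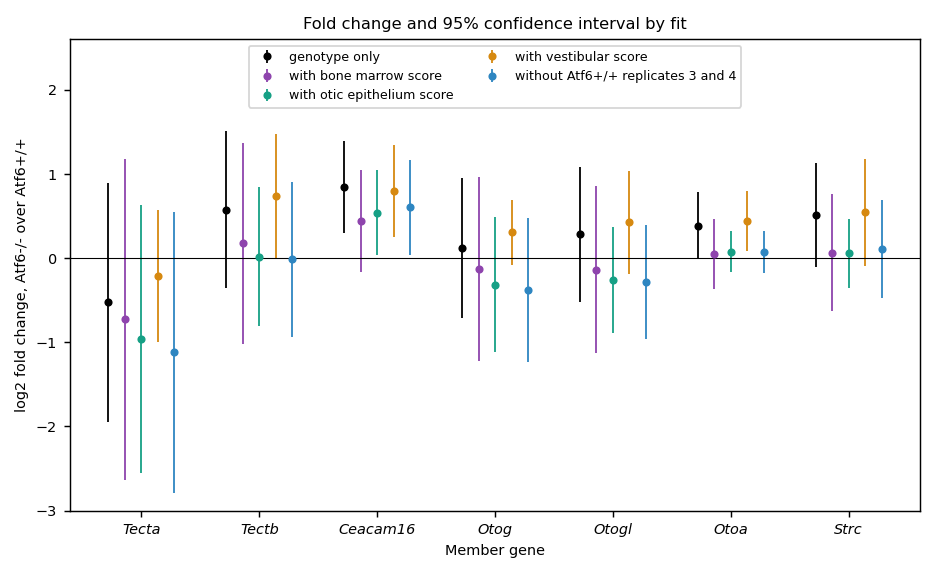
Log2 fold change of *Atf6*-/- over *Atf6*+/+ (points) with its 95% confidence interval (lines) for each member under 5 fits: genotype alone, with a bone marrow, otic epithelium or vestibular score, and without *Atf6*+/+ replicates 3 and 4. *Ceacam16* stays above 0 in all 5 (0.44 to 0.84), *Tecta* stays below 0 in all 5 (-1.12 to -0.22), and the other genes lie between -0.32 and 0.08 in the fit with the otic epithelium score.

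Several members varied together among libraries, and others did not. After each genotype's mean was removed, *Tecta* and *Otog* correlated at r = 0.92 over 11 libraries, *Tectb* and *Otogl* at 0.92, *Otog* and *Otogl* at 0.91, *Tectb* and *Otog* at 0.90, *Tecta* and *Tectb* at 0.84, and *Tecta* and *Otogl* at 0.75. These are descriptions over libraries that differ in tissue makeup, and r was between 0.78 and 0.92 for these 6 pairs without the 2 libraries farthest from the median of the second gene named. *Strc* was less like 2 of them, at 0.28 with *Tecta* and 0.53 with *Otog*, and at -0.05 and 0.19 without the 2 farthest libraries. *Ceacam16* was less like these 4 genes: its r with *Tecta* was -0.39, with *Tectb* -0.07, with *Otogl* 0.06 and with *Otog* -0.13, the last at 0.22 without the 2 farthest libraries. With *Otoa* its r was 0.47 (0.12 without the 2 farthest) and with *Strc* 0.53 (0.65). The sign was not the same in the 2 genotypes, since *Ceacam16* and *Tecta* correlated at 0.56 over the 5 *Atf6*+/+ and at -0.86 over the 6 *Atf6*-/- libraries, the latter with replicate 5 at the extreme of both genes. In that library the ratio of *Ceacam16* to *Tecta* FPKM was 2417, with *Tecta* at 0.38 FPKM, against 47.8 to 362 in the other 5 *Atf6*-/- libraries and 31.1 to 138 in the *Atf6*+/+ libraries, so the extreme belonged to 1 library. *Strc* likewise followed *Tecta* at 0.99 in *Atf6*+/+ but at -0.41 in *Atf6*-/- libraries.

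The members differed in the list that each followed most closely among those described here, and for *Tectb* and *Ceacam16* that list changed without the 2 farthest libraries. *Tecta* was most like the motile cilium list (r = 0.96, and 0.90 without the 2 farthest libraries) and also followed the vestibular list at 0.86, both chosen after the values were seen. *Otog*, *Otogl* and *Tectb* followed the hair cell list (0.96, 0.92 and 0.92), *Otoa* the otic epithelium list (0.93) and *Strc* the outer hair cell list (0.95). *Ceacam16* followed the supporting cell list at 0.77, the spiral ligament list at 0.75 and the protease list at 0.79, and ran against the neutrophil list at -0.59, while its r with the vestibular list was -0.33, and 0.15 without the 2 farthest libraries. Without the 2 farthest libraries, *Tectb* was closer to the vestibular list (0.92) than to the hair cell list (0.87). *Ceacam16* was then closest to the tectorial membrane collagen list (0.78, and 0.63 over all 11 libraries), ahead of the protease list (0.65) and the supporting cell list (0.60). *Strc* followed the supporting cell list at 0.88, and *Tecta*, at 0.04, did not. The vestibular list, whose score rests partly on values near 0, was followed by *Otog* at 0.90, *Otogl* at 0.70, *Tectb* at 0.67 and *Strc* at 0.21. Without the 2 farthest libraries these values were 0.94, 0.89, 0.92 and 0.83, against 0.86 for *Tecta*, so the differences among these 5 genes in likeness to that list rested on those libraries.

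**Figure D4:**
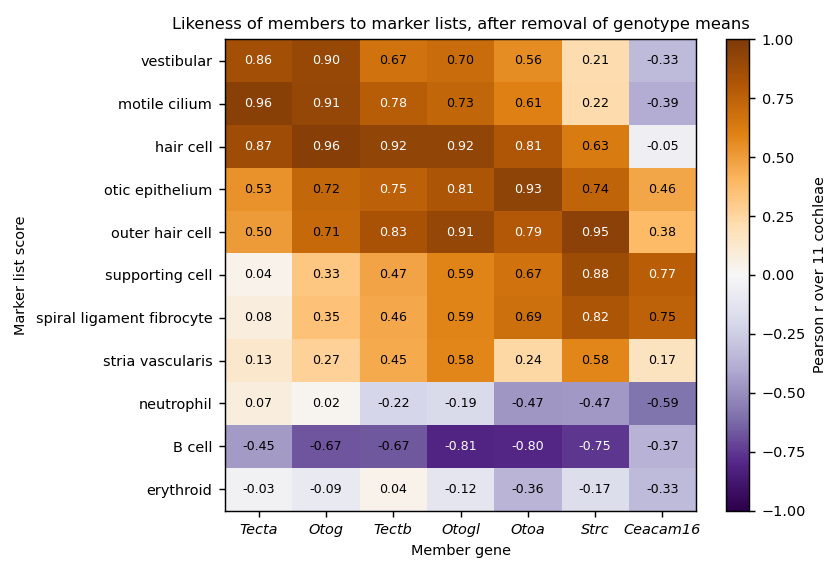
Pearson's r over 11 libraries between each member (columns) and the score of each marker list (rows), after the mean of each genotype was removed; orange is positive and purple negative. The vestibular score gives r from 0.90 (*Otog*) down to 0.21 (*Strc*, 0.83 without the 2 farthest libraries) and -0.33 (*Ceacam16*, 0.15 without them), and the supporting cell score from 0.04 (*Tecta*) up to 0.77 (*Ceacam16*) and 0.88 (*Strc*).

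Which libraries made these patterns can be read from their deviations. *Atf6*+/+ replicate 1 was above its genotype's mean log2 level for all 7 genes, though by only 0.05 for *Ceacam16*, and for the vestibular, hair cell and epithelial scores. *Atf6*+/+ replicate 3 was below that mean for the same genes and scores. *Atf6*-/- replicate 5 was the lowest *Atf6*-/- library for *Tecta*, *Tectb* and *Otog* and the highest for *Ceacam16* and *Strc*, in the library that also had the lowest vestibular and motile cilium scores. *Atf6*-/- replicate 4, with the highest *Nox3*, was the highest *Atf6*-/- library for *Otog*, *Otogl* and *Otoa*. The part of tissue makeup in the level of each member was not tested further.

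**Figure D5:**
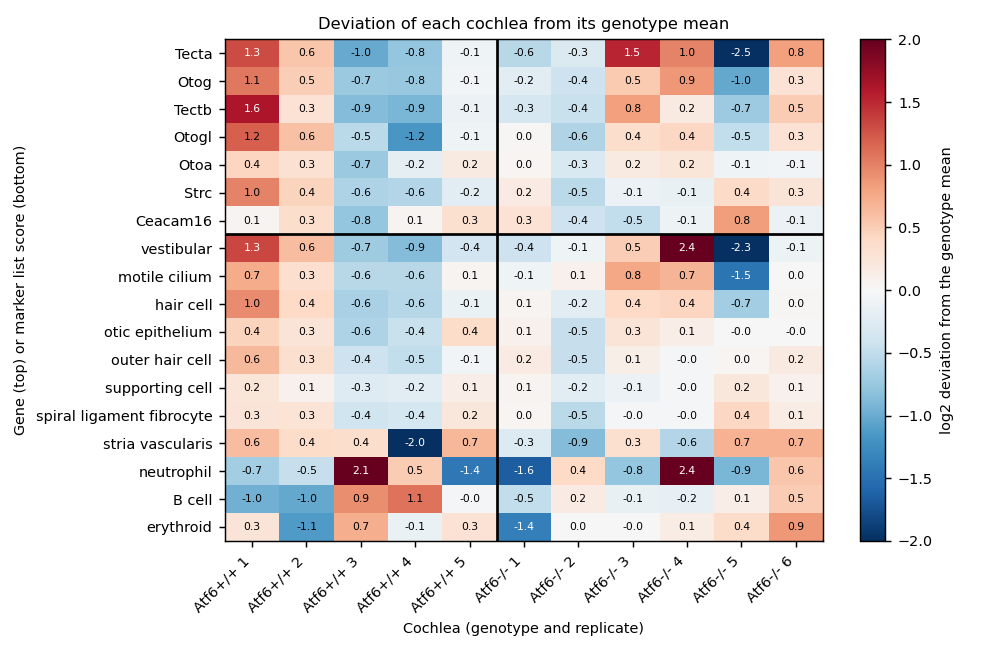
Deviation of each cochlea (columns) from the mean of its genotype, in log2 units, for the 7 genes (above the line) and 11 marker list scores (below it); red is above and blue below the mean. *Atf6*+/+ replicates 3 and 4 are blue for most members, *Atf6*-/- replicate 5 is at -2.5 for *Tecta* and 0.8 for *Ceacam16*, and the vestibular score of that library is -2.3, from genes at 0 to 0.08 FPKM there.

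Beyond the lists, the 3 genes most like each member were sought by Pearson's r over the 11 libraries among 13604 other genes that averaged 1 FPKM or more. For *Tecta* they were *Tmem255b* (r = 0.98), *Cfap52* (0.97), which encodes a protein of motile cilia, and *Acbd7* (0.96). For *Otog* they were *Bricd5* (0.97), *Dnah11* (0.97), an axonemal dynein gene, and *Cep41* (0.97). For *Tectb* they were *Slc8a2* (0.96), a sodium-calcium exchanger gene, *Sfrp1* (0.96), of a secreted Wnt modulator, and *Ttc7* (0.95). *Otogl* shared *Ttc7* (0.97) with *Tectb*, between *Slitrk6* (0.98), a transmembrane protein gene needed for inner ear innervation, and *Cdk5rap2* (0.96). *Otoa* was closest to *AI429214* (0.97), *Vmac* (0.97) and *Stard10* (0.96), and *Strc* to *Atp11a* (0.99), a phospholipid flippase gene, *Map4k3* (0.96) and *Klhdc7b* (0.95). *Ceacam16* was closest to *Moxd1* (0.95), *Shisa2* (0.94) and *Wscd2* (0.93), none of which was among the 3 nearest genes of another member. With 11 libraries and this many genes, high values of r are found by search alone, and the names describe likeness in these libraries only.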

How the data were processed

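Values analysed were the FPKM that the authors deposited for each library, given with 2 decimals. Per the labels and the study's methods, stranded mRNA libraries were sequenced on the DNBSEQ platform (paired-end, 100 bp), aligned to GRCm39 with HISAT2 2.0.4 and quantified with RSEM; the methods give RSEM 1.2.18 and the submitters' processing notes RSEM 1.2.12. Read counts were not used here, so counting error is unknown. FPKM sums were 462005 to 537926 per library.

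Log2(FPKM + 0.1) was fitted with genotype as the only term in limma 3.58.1 (R 4.3.3, mean-variance trend, two-sided) for the 16169 genes that averaged 0.1 FPKM or more, with Benjamini-Hochberg adjustment over all of them; single genes were also tested with a two-sided exact permutation test over the 462 ways to divide 11 libraries into 5 and 6, whose smallest possible p is 0.00216. In simulated data on 16169 genes the fit found 78.5% of 200 genes given a log2 change of 1, and 51.0% of 200 given 0.5. Those genes were drawn at random, with errors independent between genes. The members had 2.56 (*Otoa*) to 9.22 (*Tecta*) times the within-genotype spread of the median gene, so these shares do not carry over to them. Whether any libraries share an animal is not given in the sources used here. The methods state that controls were littermates and that both sexes were used, but litter and sex of each library are not given and were not modelled. The p-values set the difference between the genotypes against the spread between these cochleae.

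Named are the 7 members, *Atf6*, list genes that passed a rule or were most abundant, and the 3 genes most like each member. The members and lists were chosen with earlier results of these data known, and the vestibular and motile cilium lists, the vestibular and outer hair cell covariates and the joint removal of *Atf6*+/+ replicates 3 and 4 after their values were seen. A few further list genes were named by function or as examples after their values were seen. Alternatives were pseudocounts of 1 and 0.01, other filters, TPM and median-of-ratios scaling, robust variance, a replicate block, the covariates above and each library left out. *Matn3* was below the filter. Some list genes are not reported by name here. Figures were drawn with matplotlib 3.10.9 in Python 3.11.15.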

Additional observations from a re-analysis of the deposited data

Results flagged for a closer look

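Of the 14 sets of values checked (7 genes in 2 genotypes), 1 held a library far from the others: *Tectb* in *Atf6*+/+ replicate 1 was 10.75 FPKM, against 1.79 to 4.23 FPKM in the other *Atf6*+/+ libraries, and the gap to the next library was 0.728 of the whole range. By chance about 1 in 20 such sets would hold one if levels were normally distributed. The check used FPKM and not log2 values, and the 14 sets share libraries, so this rate is only a rough guide. The same library was also the highest *Atf6*+/+ library for *Tecta*, *Otog*, *Otogl*, *Otoa* and *Strc*, and its vestibular and hair cell scores were above those of the other *Atf6*+/+ libraries.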

How the results depend on the processing

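In 24 other fits each, 0 members had a limma adjusted p under 0.05, *Tecta* was negative (-0.83 to -0.029 with each library left out, nearest 0 without *Atf6*-/- replicate 5), *Ceacam16*, *Otoa* and *Atf6* kept their direction, and the adjusted p of *Ceacam16* was 0.275 to 0.963. The number of members at the unadjusted p, 1, was 2 with TPM, 2 with median-of-ratios scaling and 2 with the vestibular score (*Ceacam16* and *Otoa*), 2 with the outer hair cell score (*Ceacam16* and *Otogl*), 0 with the bone marrow score, and 1 to 4 with each library left out: 4 without *Atf6*+/+ replicate 1 (*Tectb*, *Ceacam16*, *Otoa* and *Strc*) and 2 without *Atf6*+/+ replicate 2 or *Atf6*-/- replicate 2. Of all 16169 genes the same rule called 1592 in the main fit, 1828 with TPM and 1637 with median-of-ratios scaling. It called 1562 with the vestibular, 862 with the outer hair cell and 874 with the bone marrow score. Without *Atf6*+/+ replicate 1 it called 1865 of 16172 genes, without *Atf6*+/+ replicate 2 1765 of 16171, and without *Atf6*-/- replicate 2 1788 of 16177. Members without overlap numbered 0 with TPM and 0 with median-of-ratios scaling, against 220 and 204 of all 16169 genes (202 in the main fit). These 2 scalings moved the median of all genes to 0.043 and -0.0016 on the log2 scale. Signs turned in *Tectb* with the outer hair cell score (-0.20) and without *Atf6*+/+ replicates 3 and 4 (-0.015); in *Otog* with the bone marrow (-0.13), otic epithelium (-0.32) and outer hair cell (-0.48) scores, without those replicates (-0.38) and in 3 of 11 fits that left out 1 library (range -0.071 to 0.38); in *Otogl* under the same scores and without those replicates (-0.14, -0.26, -0.44 and -0.28) and in 1 of 11 fits that left out 1 library (range -0.0068 to 0.58); and in *Strc* with the outer hair cell score (-0.062). The cause was not tested. The median log2 fold change of the members was 0.20 to 0.58 with each library left out, 0.05 with the bone marrow score, 0.02 with the otic epithelium score, -0.20 with the outer hair cell score and -0.015 without *Atf6*+/+ replicates 3 and 4.

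Replicate numbers did not pair the libraries: same-numbered libraries correlated at -0.31 to 0.21 in their deviations, and 1 of 5 *Atf6*+/+ libraries was most like its own number. With a replicate block the log2 fold change of *Ceacam16* was 0.87, 1 member passed the unadjusted rule, 0 the adjusted, the median was 0.40, and calls over all genes went from 1592 to 1078 (unadjusted) and from 11 to 4 (adjusted); *Atf6*-/- replicate 6 has no partner. Without read counts, the precision at low FPKM is unknown.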
